A study of Rattus norvegicus with 16 samples.

Results

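The miR-34 and miR-449 microRNAs were taken as every row of the count tables named rno-miR-34a, rno-miR-34b, rno-miR-34c, rno-miR-449a or rno-miR-449c, with either arm suffix, which gave 10 of the 722 rat miRNAs listed: a 5p and a 3p row for each of 5 hairpins. The rule uses names alone, though the family was picked for description with earlier results of these data known. Small RNA was sequenced from 2 brain regions of 2 rat lines. The regions were the dorsal raphe, the midbrain nucleus that sends serotonin fibres to the forebrain, and the amygdala, the forebrain nuclei known for their part in fear. The lines, labelled High Responder and Low Responder, are known as lines bred for a high or a low locomotor response to a new environment. All rats were 60 days old, none is labelled as treated, and there are 16 libraries, 4 for each line in each region. The labels give neither the sex, nor whether a library is 1 rat or a pool, nor how the regions were dissected. Since they do not state that samples are separate rats either, the p-values here reflect only how far these samples vary, which may be technical.

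The miR-34 and miR-449 hairpins belong to 1 seed family. The seed, the stretch near the 5′ end of a mature miRNA, pairs with messenger RNAs and largely sets which of them are repressed, so that miRNAs with a common seed have overlapping targets. Mir34a, and the Mir34b and Mir34c pair, are textbook targets of the tumour suppressor p53 and slow the cell cycle. The miR-449 miRNAs, with miR-34b and miR-34c, are known for their abundance in multiciliated epithelia, which in the brain include the ependyma and the choroid plexus, the epithelium that makes cerebrospinal fluid.

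The 5 mature 5p sequences are shown because the common seed is what makes these miRNAs a family and because their likeness limits how reads can be told apart. Sequences are from RefSeq, assembly GRCr8, written 5′ to 3′, with the seed (bases 2 to 8) in capitals.
miR-34a-5p: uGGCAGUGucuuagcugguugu
miR-34b-5p: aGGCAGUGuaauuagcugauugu
miR-34c-5p: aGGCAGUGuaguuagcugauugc
miR-449a-5p: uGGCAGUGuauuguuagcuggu
miR-449c-5p: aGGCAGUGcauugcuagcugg
All 10 members matched an entry of the RefSeq table. Of its 693 distinct rat mature names, these 5 alone carry the seed GGCAGUG. Counted from base 1 at the 5′ end, miR-34b-5p and miR-34c-5p are identical at 21 of 23 positions and differ by A11G and U23C. miR-449a-5p and miR-449c-5p are identical at 18 of 21 positions compared and differ by U1A, U9C and U14C. miR-34a-5p shares 15 of 22 positions with miR-449a-5p and 11 of 22 with miR-34b-5p. The authors' handling of reads with more than 1 matching miRNA is not given in the sources used here. The split between miR-34b-5p and miR-34c-5p, and between miR-449a-5p and miR-449c-5p, is therefore uncertain.

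The opposite arms are less alike, and are shown because the 3p rows of miR-34b and miR-34c share a seed of their own while those of miR-34a and miR-449 do not.
miR-34a-3p: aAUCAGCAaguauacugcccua
miR-34b-3p: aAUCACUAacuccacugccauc
miR-34c-3p: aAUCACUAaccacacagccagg
miR-449a-3p: cAGCUAACaugcaacugcucuc
miR-449c-3p: uAGAACUUcgucccaac
The seed AUCACUA belongs to miR-34b-3p and miR-34c-3p alone among the RefSeq rat names. The listed miR-449c-3p is 17 bases long and starts 4 bases after the end of miR-449c-5p.

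In GRCr8, a build that the files are not known to use, the hairpins lie at 3 loci. Mir34a is on chromosome 5 (chr5:165815952-165816053, + strand), inside the long non-coding gene LOC103692514. Mir34c (chr8:60306091-60306167) and Mir34b (chr8:60306609-60306692) are on the - strand of chromosome 8 with 441 bases between them. Mir34c lies within the protein-coding gene Hoatz and Mir34b overlaps it. Mir449c (chr2:46402375-46402473) and Mir449a (chr2:46403910-46404000) are on the + strand of chromosome 2 with 1436 bases between them, both inside the long non-coding gene LOC134485839.

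The libraries held 1741167 to 8134915 counts, and levels are given as counts per 1000000 (CPM) after scaling by trimmed mean of M values (TMM), a correction for differences in composition between libraries. A count of 3, used as the detection floor, stands for 0.369 to 1.72 unscaled CPM, which covers counting error only. Low responder dorsal raphe replicate 4 has a TMM factor of 0.596 against 0.870 to 1.27 in the other libraries. It and high responder amygdala replicate 1 deviate most from their group means over all miRNAs (root mean square 1.03 and 0.968 on the log2 scale, against 0.285 to 0.880 in the others). Each comparison was therefore also made without both. Low responder amygdala replicate 4 deviates by 0.670, less than these, but holds the lowest levels of several members. The tissue labels can be checked only in part from miRNAs. The amygdala libraries had higher levels in 4 of 9 neuron miRNAs, such as miR-128-3p (log2 fold change 2.23, SE 0.22, edgeR adjusted p = 1.08e-06). Of all miRNAs tested, 9.39% were higher in amygdala and 14.9% lower at an adjusted p of 0.05. The amygdala libraries had lower levels of 2 of the 3 hindbrain Hox miRNAs tested, miR-10b-5p (-4.30, SE 0.60, adjusted p = 3.88e-05) and miR-10a-5p. The third, miR-196a-5p, did not pass (0.51, adjusted p = 0.374). In high responders miR-10b-5p passed (-3.02, adjusted p = 0.016) but miR-10a-5p did not (-1.12, adjusted p = 0.248). The Hox list summed to 3929 CPM in low responder dorsal raphe replicate 4 and to 368 to 470 CPM in the other dorsal raphe libraries. No list held miRNAs that define serotonin neurons.

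Between the regions 3 members of the family passed, in different directions. miR-34a-5p was 8.89-fold lower in amygdala than in dorsal raphe, while miR-449a-5p was 2.51-fold and miR-449c-5p 3.64-fold higher in amygdala, averaged over the lines. The other 7 rows did not pass. Thus 3 of 10 members passed edgeR's quasi-likelihood test at an adjusted p of 0.05, 1 lower and 2 higher, where 24.3% of the 639 miRNAs tested did (14.9% lower, 9.39% higher). The members' share is thus near the background. DESeq2 called 5 members (100 miRNAs higher and 103 lower in all, against 60 and 95 in edgeR) and limma-voom only miR-34a-5p (48 higher and 95 lower in all). Without both libraries that stand apart 5 members passed, with the median of all miRNAs raised by 0.30 and 128 miRNAs higher and 84 lower. Unadjusted, 6 of the 10 were under 0.05, against 39.0% of all. The median log2 fold change of the 10 rows was 1.04, with 8 above 0, beside -0.08 over all miRNAs tested. All 10 passed the low count filter. Between the lines no member passed in either region.

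The mature 5p rows are 21 to 23 bases long, so their levels were compared within a library without a length correction. They are read counts made after ligation and amplification, steps that can favour some sequences, so an order between different miRNAs is one of reads and may not be one of molecules. miR-34c-5p was the highest of the 5 rows with the family seed in 15 of 16 libraries. The exception was low responder dorsal raphe replicate 2, in which miR-34a-5p led. miR-449a-5p and miR-449c-5p came behind the other 3 in all 16, in that order. The ranks of miR-34a-5p and miR-34b-5p depended on the region: miR-34a-5p was above miR-34b-5p in 8 of 8 dorsal raphe libraries and in 1 of 8 amygdala libraries, low responder replicate 4.

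Together the 5 rows made up 0.487% ± 0.127 of the unscaled counts of a library in dorsal raphe (SD, n = 8) and 0.707% ± 0.399 in amygdala (SD, n = 8). The ranges overlapped, 0.283% to 0.712% against 0.0566% to 1.23%. The lowest value and the highest are both low responder amygdala libraries, replicates 4 and 2. miR-34c-5p held 39.5% to 83.3% of the summed 5p counts in dorsal raphe and 48.4% to 90.3% in amygdala. miR-449a-5p held at most 0.868% and miR-449c-5p at most 0.298%.

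The share of miR-34a-5p in those summed counts was then compared by library. In dorsal raphe it was 28.0%, 50.6%, 41.9% and 9.36% in low responder replicates 1 to 4 and 34.1%, 27.2%, 39.3% and 25.4% in high responders. In amygdala it was 4.14%, 1.55%, 3.13% and 46.3% in low responders and 0.867%, 0.594%, 2.38% and 2.00% in high responders. Apart from low responder replicate 4, each amygdala library had a lower share than each dorsal raphe library. In low responder amygdala replicate 4 the miR-34a-5p level was 282 CPM, under every dorsal raphe library, and its levels of miR-34b-5p and miR-34c-5p were the lowest of all 16.

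**Figure D1:**
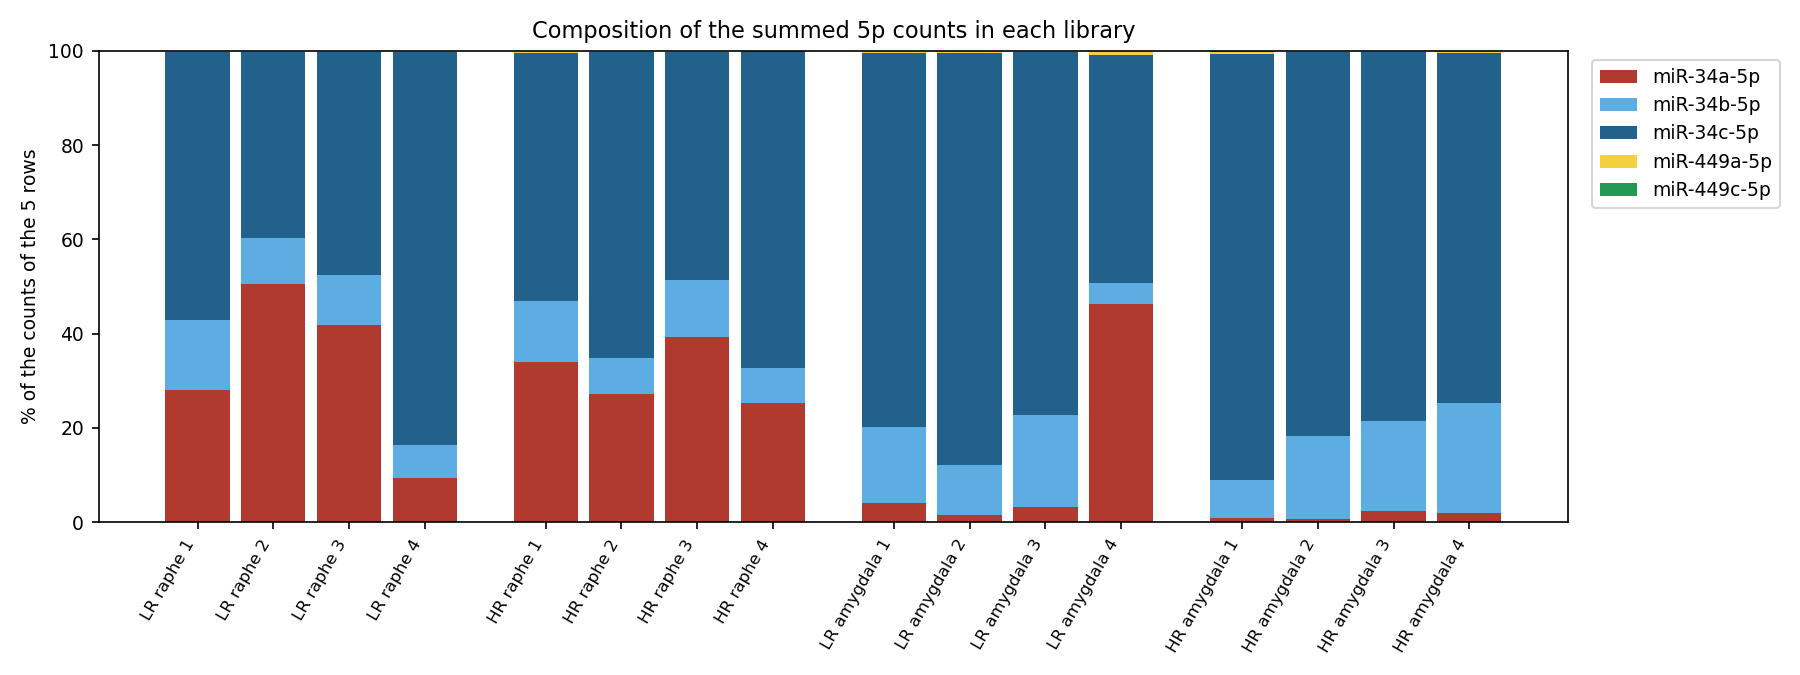
Share of each 5p row in the summed counts of the 5 rows (y axis, %), 1 bar for each of the 16 libraries, LR for low and HR for high responders. miR-34c-5p takes 39.5% to 90.3% of each bar, and miR-34a-5p takes 9.36% to 50.6% in dorsal raphe but 0.594% to 4.14% in amygdala, except for 46.3% in LR amygdala 4.

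rno-miR-34a-5p, written miR-34a-5p here, from the chromosome 5 locus, had the lowest p of the 10 members between regions. In dorsal raphe its levels were 1340.3, 1711, 2041 and 445 CPM in low responders and 1259, 1434.5, 1958 and 1720.0 CPM in high responders. In amygdala they were 157, 177.5, 184 and 282 CPM in low responders and 34.1, 58.8, 227 and 236 CPM in high responders. Every dorsal raphe library was above every amygdala library, and this held without TMM scaling, where the closest libraries are 264.8 and 262.2 CPM (replicate 4 of low responder dorsal raphe and of low responder amygdala). Libraries of the 2 regions did not overlap in this direction for 4.69% of all miRNAs tested. Means were 1489 ± 507 CPM in dorsal raphe and 169 ± 85.6 CPM in amygdala (SD, n = 8 each).

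The fitted log2 fold change of miR-34a-5p, amygdala over dorsal raphe, was -3.15 (SE 0.40, 95% interval -3.99 to -2.32, edgeR adjusted p = 1.53e-05), which ranks it 14 of 639 miRNAs by p. The same direction passed in low responders (-2.79, SE 0.55, adjusted p = 0.00209) and in high responders (-3.51, SE 0.57, adjusted p = 0.000461). It was the 1 member called in low responders, where 14.1% of miRNAs were (3.6% higher, 10.5% lower), and 1 of 2 in high responders, where 13.1% were (6.57% in each direction). In low responders edgeR called 23 miRNAs higher and 67 lower, library totals 34 and 54, and DESeq2 40 and 69. In both lines the 4 libraries of a region lay apart from the 4 of the other, as did 13.1% of all miRNAs in that direction in low responders and 12.4% in high responders. The averaged call was kept under every alternative run, including without both libraries that stand apart, and leaving out single libraries gave -3.27 to -2.89. In bulk tissue, fewer cells that hold a miRNA and less of it in each cell cannot be told apart.

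**Figure D2:**
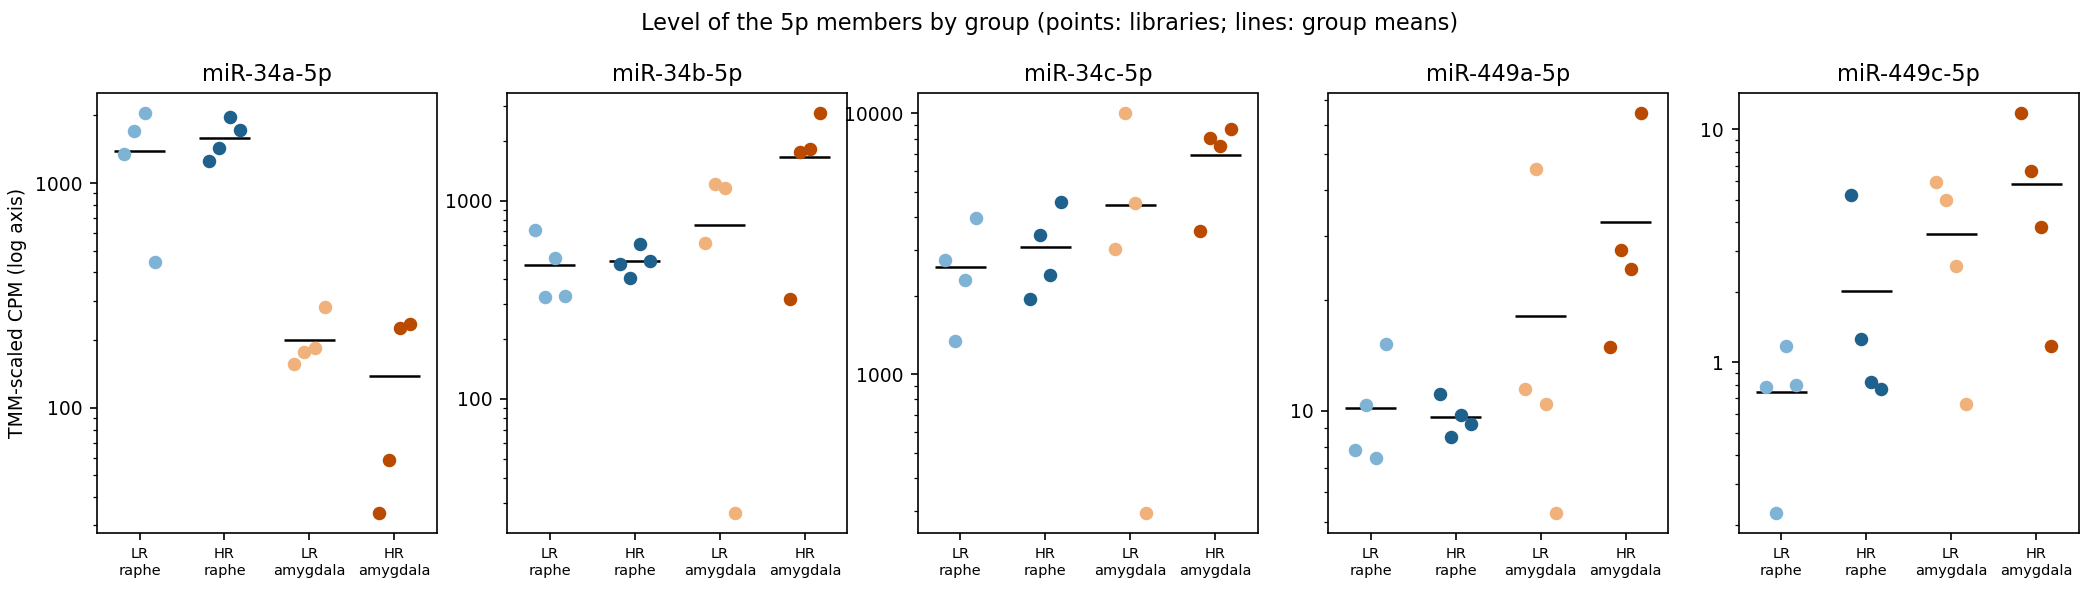
Level of each 5p row in TMM-scaled CPM (y axis, log scale), 1 point for each library and a line at the mean of each of the 4 groups. All 8 amygdala points of miR-34a-5p (34.1 to 282 CPM) lie under all 8 dorsal raphe points (445 to 2041 CPM), while the regions overlap in the other 4 rows.

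The opposite arm, miR-34a-3p, was rare in both regions. Its counts were 20, 15, 21 and 1 in low responder dorsal raphe, 8, 12, 20 and 15 in high responder dorsal raphe, 10, 16, 5 and 12 in low responder amygdala and 7, 6, 6 and 3 in high responder amygdala. As levels these are 0.801 to 4.11 CPM in dorsal raphe and 0.706 to 3.73 CPM in amygdala, so the regions overlapped. Its log2 fold change was -0.70 (95% interval -1.51 to 0.10, adjusted p = 0.18), an interval that lies wholly above that of miR-34a-5p.

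Within the hairpin, the 3p arm therefore took a larger share of the miR-34a counts in amygdala. In dorsal raphe the share was 0.232%, 0.198%, 0.201% and 0.180% in low responders and 0.207%, 0.151%, 0.168% and 0.223% in high responders. In amygdala it was 1.44%, 1.63%, 0.586% and 0.559% in low responders and 9.86%, 3.64%, 0.436% and 0.298% in high responders. No amygdala library fell within the dorsal raphe range. The mean difference was 2.11 percentage points, with 2.31% ± 3.24 in amygdala and 0.195% ± 0.0275 in dorsal raphe (SD, n = 8 each), and the exact two-sided permutation test within lines gave p = 0.000408, the smallest its 4900 arrangements can give.

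The size of that difference rests largely on high responder amygdala replicate 1, where 7 of 71 counts were 3p (exact 95% binomial interval 4.06% to 19.3%, counting error only). Without it the difference was 1.06 points (exact permutation p = 0.000408). Leaving out any 1 of the 4 high responder dorsal raphe libraries left 2.10 to 2.12 points, but the exact permutation p was then 0.0918 to 0.0971. The shares of the regions still did not overlap, with 0.298% the lowest in amygdala and 0.232% the highest in dorsal raphe. With 1 to 21 counts of miR-34a-3p in a library, most single intervals are wide: in high responder amygdala replicate 4, 3 of 1007 counts give 0.0615% to 0.868%.

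**Figure D3:**
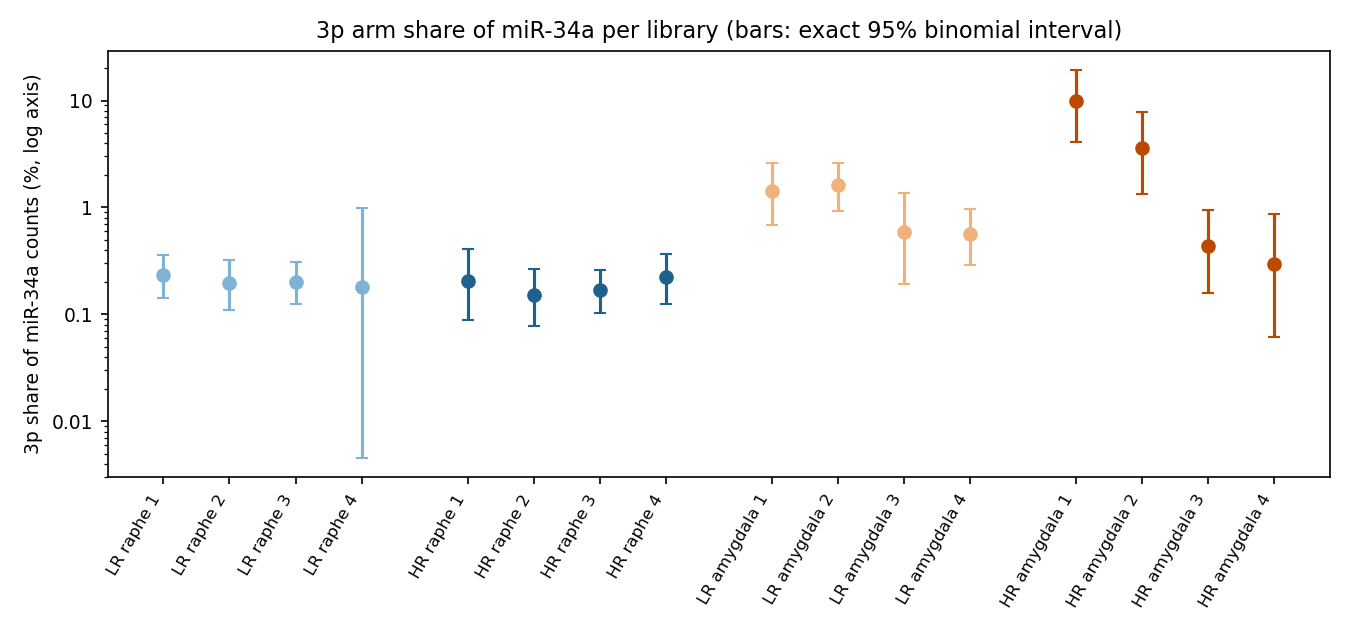
Share of the miR-34a counts that came from the 3p arm (y axis, %, log scale) in each of the 16 libraries, with exact 95% binomial intervals that cover counting error only. The 8 dorsal raphe points lie between 0.151% and 0.232% and the 8 amygdala points between 0.298% and 9.86%.

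Such a change of arm share was described for the other hairpins without a test. The 3p arm of miR-34b held 10.4% to 22.7% of its hairpin's counts in dorsal raphe and 6.72% to 23.8% in amygdala. That of miR-34c held 1.24% to 2.77% and 0.980% to 2.24%. Both ranges overlap between regions, and both hairpins have their mean share lower in amygdala (10.9% against 15.8%, and 1.54% against 2.35%), the opposite order from miR-34a. The miR-449a hairpin had the same order as miR-34a, with a mean of 9.16% in amygdala against 6.98% in dorsal raphe. Its ranges overlapped on few counts, 0% to 22.2% and 0% to 17.1%. The miR-449c hairpin had 35.7% to 57.1% of its counts in the 3p row, on few counts. Since the listed miR-449c-3p starts 4 bases after the end of miR-449c-5p, whether that row is the opposite arm is uncertain.

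rno-miR-34b-5p, or miR-34b-5p, from the chromosome 8 pair, had levels of 713, 325, 513 and 330.0 CPM in low responder dorsal raphe and 476, 405, 604 and 493 CPM in high responder dorsal raphe. In low responder amygdala it had 608, 1209.6, 1150.2 and 26.7 CPM. In high responder amygdala it had 320.5, 1752, 1823.5 and 2746 CPM. The dorsal raphe libraries lay close together, whereas the amygdala libraries reached from below the lowest dorsal raphe library to above the highest. Low responder amygdala replicate 4 and high responder amygdala replicate 1 are the 2 amygdala libraries under the dorsal raphe mean of 482.5 CPM.

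Its log2 fold change, amygdala over dorsal raphe, was 1.21 (SE 0.51, 95% interval 0.14 to 2.27, edgeR adjusted p = 0.0866). In high responders alone it was 1.75 (0.22 to 3.28, adjusted p = 0.125) and in low responders 0.67 (-0.82 to 2.16, adjusted p = 0.537). The averaged difference passed without low responder amygdala replicate 4 (1.50, adjusted p = 0.00408), without high responder amygdala replicate 1 (1.51, adjusted p = 0.0308) and without both libraries that stand apart (1.49, adjusted p = 0.0396). DESeq2 also called it (1.26, adjusted p = 0.0333), as did edgeR on miRNAs with a mean of at least 10 CPM (1.48, adjusted p = 0.0391). The high responder difference passed without low responder amygdala replicate 4 (1.81, adjusted p = 0.0163) and without high responder amygdala replicate 1 (2.142, adjusted p = 0.0495), without both libraries that stand apart (2.22, adjusted p = 0.0404) and in DESeq2 (1.77, adjusted p = 0.0471).

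miR-34c-5p, its neighbour, was the most abundant member. Levels were 2732, 1336, 2305 and 3957 CPM in low responder dorsal raphe and 1946, 3422, 2410.1 and 4557 CPM in high responder dorsal raphe. In amygdala they were 3008, 9987, 4522 and 294 CPM in low responders and 3549.6, 8056, 7463 and 8738 CPM in high responders. As with miR-34b-5p, low responder amygdala replicate 4 was the lowest of all 16 libraries and the regions overlapped. The log2 fold change was 0.98 (SE 0.45, 95% interval 0.04 to 1.92, adjusted p = 0.114). Without low responder amygdala replicate 4 it was 1.28 (adjusted p = 0.00489), and without both libraries that stand apart 1.42 (adjusted p = 0.038). With all 16 libraries it passed on miRNAs with a mean of at least 10 CPM (1.29, adjusted p = 0.0422), a filter under which 4 members were called. That filter left out miR-34a-3p, miR-449a-3p and both miR-449c rows. Of the 405 miRNAs it kept, 67 were called higher in amygdala and 63 lower.

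The 2 neighbours kept a similar ratio in both regions. miR-34b-5p was 0.0834 to 0.261 of miR-34c-5p in dorsal raphe (mean 0.192 ± 0.0744, SD, n = 8) and 0.0903 to 0.314 in amygdala (0.192 ± 0.0828, SD, n = 8), within the limit that their reads may be split between them. Across the 16 libraries their log2 levels had a Pearson r of 0.904, and 0.774 without low responder amygdala replicate 4. Over the 8 dorsal raphe libraries alone r was 0.0923. These r values describe libraries that share a scaling and 2 regions.

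The 3p rows of the pair did not pass between regions either. miR-34b-3p ran from 49.7 to 145 CPM in dorsal raphe and from 8.32 to 208 CPM in amygdala, with a log2 fold change of 0.24 (95% interval -0.70 to 1.18, adjusted p = 0.702). miR-34c-3p ran from 33.0 to 116 CPM and from 6.74 to 146 CPM, with 0.36 (-0.56 to 1.27, adjusted p = 0.552). In amygdala both were lowest in low responder replicate 4. The direction of miR-34b-3p turned in limma-voom (-0.12) and without low responder amygdala replicate 2 (-0.05). Their r over the 16 libraries was 0.987, and 0.914 within dorsal raphe and 0.999 within amygdala.

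rno-miR-449a-5p, or miR-449a-5p, the more abundant miRNA of the chromosome 2 pair, had 7.81, 10.4, 7.44 and 15.2 CPM in low responder dorsal raphe and 11.1, 8.50, 9.72 and 9.24 CPM in high responder dorsal raphe. In amygdala it had 11.5, 45.4, 10.4 and 5.28 CPM in low responders and 14.9, 27.4, 24.3 and 64.5 CPM in high responders. In high responders each amygdala library was above each dorsal raphe library, as was the case for 11.1% of all miRNAs tested, while the low responder regions overlapped. The averaged log2 fold change was 1.33 (SE 0.39, 95% interval 0.50 to 2.15, edgeR adjusted p = 0.0188).

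By line, miR-449a-5p passed in high responders (1.78, SE 0.55, adjusted p = 0.0417) but not in low responders (0.88, 95% interval -0.29 to 2.04, adjusted p = 0.307). The test of the difference between the lines did not pass (0.90, -0.73 to 2.53, adjusted p = 0.727). The high responder call was close to the threshold. It was lost without low responder dorsal raphe replicate 2 (adjusted p = 0.0508), without each of the 4 high responder dorsal raphe libraries (0.0595 to 0.0822) and without high responder amygdala replicate 4 (1.28, adjusted p = 0.0825). It was also lost with library totals in place of TMM factors (1.56, adjusted p = 0.0627), which lower the median of all miRNAs in high responders by 0.19 and change the calls from 42 higher and 42 lower to 40 and 71. limma-voom did not call it either (1.59, adjusted p = 0.0566). The averaged call held in each of 16 fits without 1 library (adjusted p of 0.00326 to 0.0392) but not in limma-voom (1.05, adjusted p = 0.0577).

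miR-449c-5p was rare, with counts of 5, 1, 6 and 1 in low responder dorsal raphe, 16, 7, 5 and 3 in high responder dorsal raphe, 26, 27, 12 and 5 in low responder amygdala and 22, 18, 23 and 5 in high responder amygdala. In 3 dorsal raphe libraries it was at or under the floor of 3 counts. Levels ran from 0.226 to 5.22 CPM in dorsal raphe and from 0.660 to 11.7 CPM in amygdala and overlapped. The highest dorsal raphe level was that of high responder replicate 1. The averaged log2 fold change was 1.86 (SE 0.58, 95% interval 0.65 to 3.08, adjusted p = 0.0239), a fitted value that for so few counts also depends on edgeR's prior count. The call was lost without low responder amygdala replicate 1 (1.67, adjusted p = 0.0583) and in limma-voom (1.50, adjusted p = 0.0947). By line its values were 2.18 in low responders (adjusted p = 0.0954) and 1.54 in high responders (adjusted p = 0.2). It was called in low responders without low responder amygdala replicate 4 (2.65, adjusted p = 0.0449) and in high responders without high responder dorsal raphe replicate 1 (2.49, adjusted p = 0.0465).

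miR-449c-3p followed its 5p row closely, with r of 0.976 over the 16 libraries, 0.958 within dorsal raphe and 0.971 within amygdala. Its counts were 1 to 10 in dorsal raphe and 3 to 20 in amygdala. Its log2 fold change was 1.39 (95% interval 0.31 to 2.47, adjusted p = 0.0561), which passed without low responder amygdala replicate 4 (1.67, adjusted p = 0.014), high responder dorsal raphe replicate 1 (1.697, adjusted p = 0.02) or high responder amygdala replicate 4 (1.63, adjusted p = 0.0196). miR-449a-3p had 0 to 13 counts. It was at 0 in 3 libraries, replicate 4 of low responder dorsal raphe, high responder dorsal raphe and high responder amygdala, where a count of 0 allows up to 1.43, 0.808 and 0.636 unscaled CPM. Its log2 fold change was 1.10 (-0.45 to 2.65, adjusted p = 0.276). The 2 miR-449 5p rows, unlike the 2 rows of miR-449c, had a low correlation with each other. Their r was 0.391 over the 16 libraries and 0.14 within amygdala.

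In order of level, not every pair of neighbours in the family was separated by more than its spread. In dorsal raphe the ranges of miR-34c-5p and miR-34a-5p overlapped, as did those of miR-34a-5p and miR-34b-5p. miR-449a-5p lay wholly under miR-34b-5p, and miR-449c-5p wholly under miR-449a-5p. In amygdala each range overlapped that of the next row in the order miR-34c-5p, miR-34b-5p, miR-34a-5p, miR-449a-5p and miR-449c-5p.

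**Figure D4:**
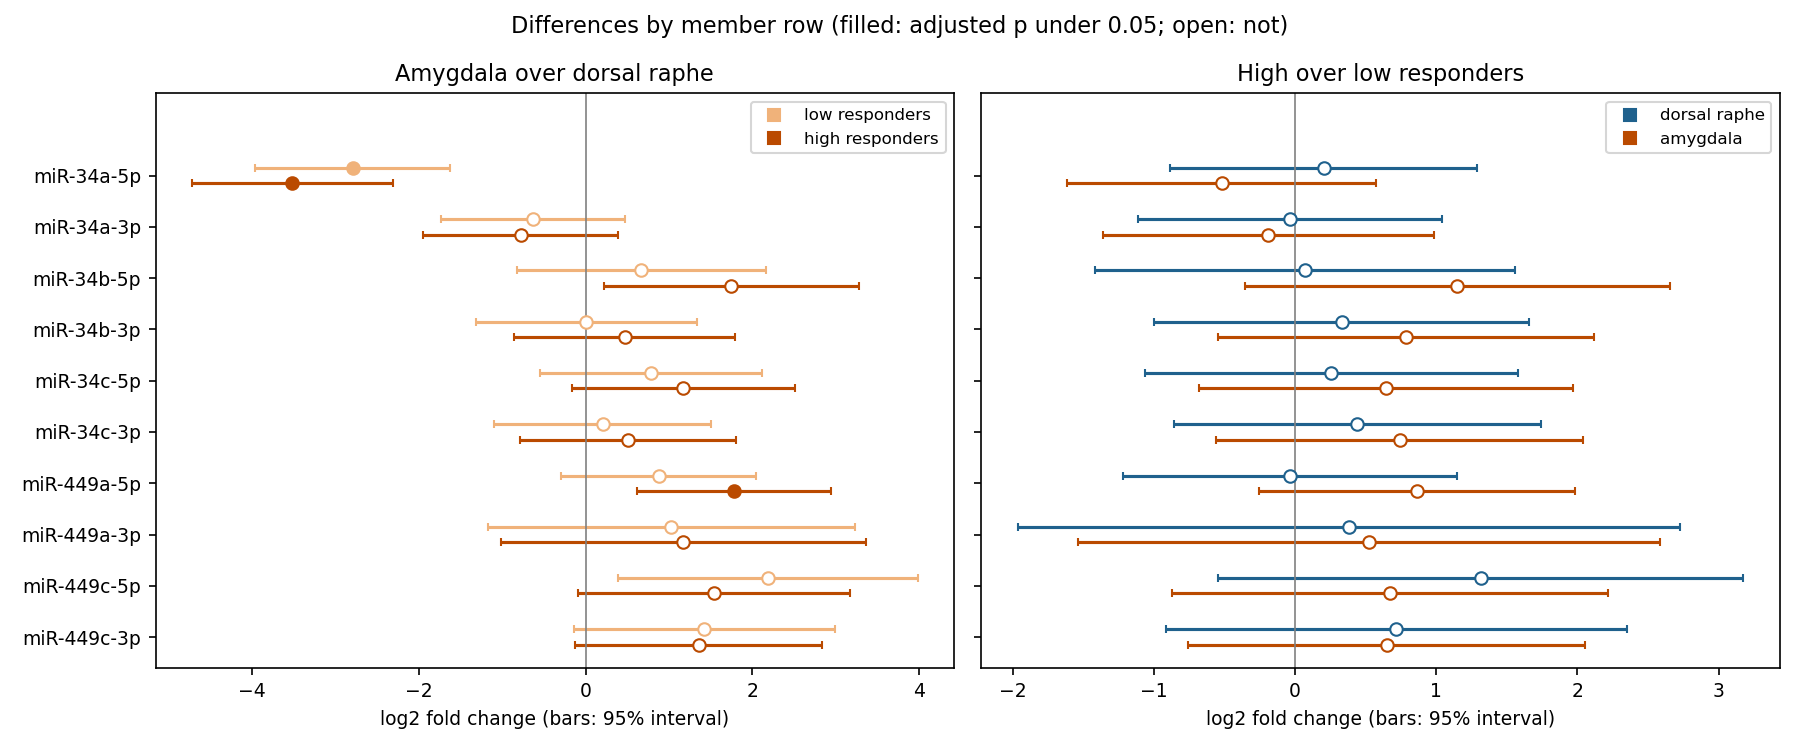
log2 fold changes of the 10 rows with 95% intervals (x axis), amygdala over dorsal raphe by line on the left and high over low responders by region on the right, filled where the adjusted p was under 0.05. Only miR-34a-5p in both lines (-2.79 and -3.51) and miR-449a-5p in high responders (1.78) are filled, and every interval in the right panel spans 0.

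High and low responders were then compared within each region. In dorsal raphe 0 of 10 members passed edgeR's test, where 0.0% of all miRNAs did, and 0 had an unadjusted p under 0.05 (11.0% of all). limma-voom and DESeq2 called 0 members there as well, and 0 of all 639 miRNAs. The estimates ran from -0.04 for miR-34a-3p and miR-449a-5p to 1.31 for miR-449c-5p (95% interval -0.55 to 3.18, adjusted p = 0.734). For miR-34a-5p the estimate was 0.20 (-0.89 to 1.29, adjusted p = 0.991), for miR-34b-5p 0.07 (-1.42 to 1.56) and for miR-34c-5p 0.26 (-1.06 to 1.58). Intervals of this width do not show that the lines were alike. miR-34a-3p and miR-449a-5p turned direction with library totals (0.11 and 0.24), which raise the median of all miRNAs by 0.20 here.

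In amygdala 0 of 10 members passed in edgeR, where 0.0% of all miRNAs did, and 0 had an unadjusted p under 0.05 (10.2% of all). limma-voom and DESeq2 also called 0 of the members. Of all 639 miRNAs, DESeq2 called 14 higher and 5 lower in high responders, and limma-voom 0. The estimates were 1.15 for miR-34b-5p (95% interval -0.35 to 2.65, adjusted p = 0.659), 0.86 for miR-449a-5p (-0.26 to 1.98, adjusted p = 0.659) and 0.64 for miR-34c-5p (-0.68 to 1.97, adjusted p = 0.754). For miR-34a-5p it was -0.52 (-1.62 to 0.57, adjusted p = 0.754). The 8 rows other than those of miR-34a had estimates above 0 and both miR-34a rows below, but low responder amygdala replicate 4, the lowest amygdala library in 7 of these 8 rows, lies in the low responder group. For each of the 10 rows the 2 lines' libraries overlapped, whereas of all miRNAs 5.01% lay apart with high responders higher and 3.76% with them lower. The replicate numbers were taken to pair these libraries, and with the number as a block in the amygdala libraries alone 0 members passed too. Both miR-449c rows were higher in the high responder library in all 4 pairs, as were 14.7% of all miRNAs (14.1% were lower in all 4). For miR-449c-5p the pairs were 5.96 and 11.7, 4.96 and 6.65, 2.60 and 3.80, and 0.660 and 1.18 CPM (low responder first). Its estimate was 0.67 (95% interval -0.87 to 2.21, edgeR adjusted p = 0.76), and 0.67 with the block (adjusted p = 0.301). For miR-449c-3p it was 0.65 (-0.76 to 2.06, adjusted p = 0.754), and 0.79 with the block (adjusted p = 0.304).

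The interaction, the region difference in high responders minus that in low responders, gave 0 of 10 members in edgeR (0.0% of all), 0 with an unadjusted p under 0.05 (12.7% of all), and 0 in DESeq2 and limma-voom. Of all 639 miRNAs, DESeq2 called 18 higher and 4 lower in this contrast, and limma-voom 0. The interaction was -0.72 for miR-34a-5p (95% interval -2.27 to 0.82) and 1.08 for miR-34b-5p (-1.03 to 3.19). Library totals lower the median of all miRNAs in this contrast by 0.33.

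Markers of the choroid plexus were compared with the rows that were higher in amygdala. Of 8 choroid plexus miRNAs, 7 were higher in amygdala and 0 lower, where 9.39% of all tested were higher and 14.9% lower. Their median log2 fold change was 1.62, beside -0.08 over all miRNAs tested. Among them were miR-204-5p (1.79, SE 0.35, adjusted p = 0.00101), abundant in that epithelium, and miR-1298 (4.00, SE 0.54, adjusted p = 2.69e-05). Their summed level was 2820 to 7023.5 CPM in low responder dorsal raphe, 2486 to 3817 in high responder dorsal raphe, 2114 to 47815 in low responder amygdala and 33315 to 49402 in high responder amygdala. By line, 3 of the 8 passed as higher in low responders, where 3.6% of all miRNAs tested did. In high responders 7 passed as higher, where 6.57% of all did. No listed marker was at 0 in all libraries, and miR-211-3p and miR-429 were at 0 in some. The low responder amygdala libraries differed among themselves, with 11183, 47815, 29881 and 2114 CPM, the last under every dorsal raphe library. That library, replicate 4, is also the one with the lowest miR-34b-5p, miR-34c-5p and miR-449a-5p levels. Replicate 2 of the same group, with the highest sum of that group, has the highest miR-34c-5p level of all 16. Other libraries did not follow the sum. High responder amygdala replicate 1, with a sum of 33315 CPM, had 320.5 CPM of miR-34b-5p, under every dorsal raphe library. Low responder amygdala replicate 3, with 29881 CPM, had 10.4 CPM of miR-449a-5p, within the dorsal raphe range of 7.44 to 15.2 CPM. miR-449c-5p, also called higher in amygdala, did not follow the marker sum throughout either. Its lowest amygdala level was in low responder replicate 4 as well (0.660 CPM). But it had 5.96 CPM in low responder amygdala replicate 1, where the sum was 11183 CPM. In high responder amygdala replicate 4 it had 1.18 CPM, where the sum was 40141 CPM. The part of choroid plexus tissue in the differences of miR-34b, miR-34c and miR-449 was not tested.

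**Figure D5:**
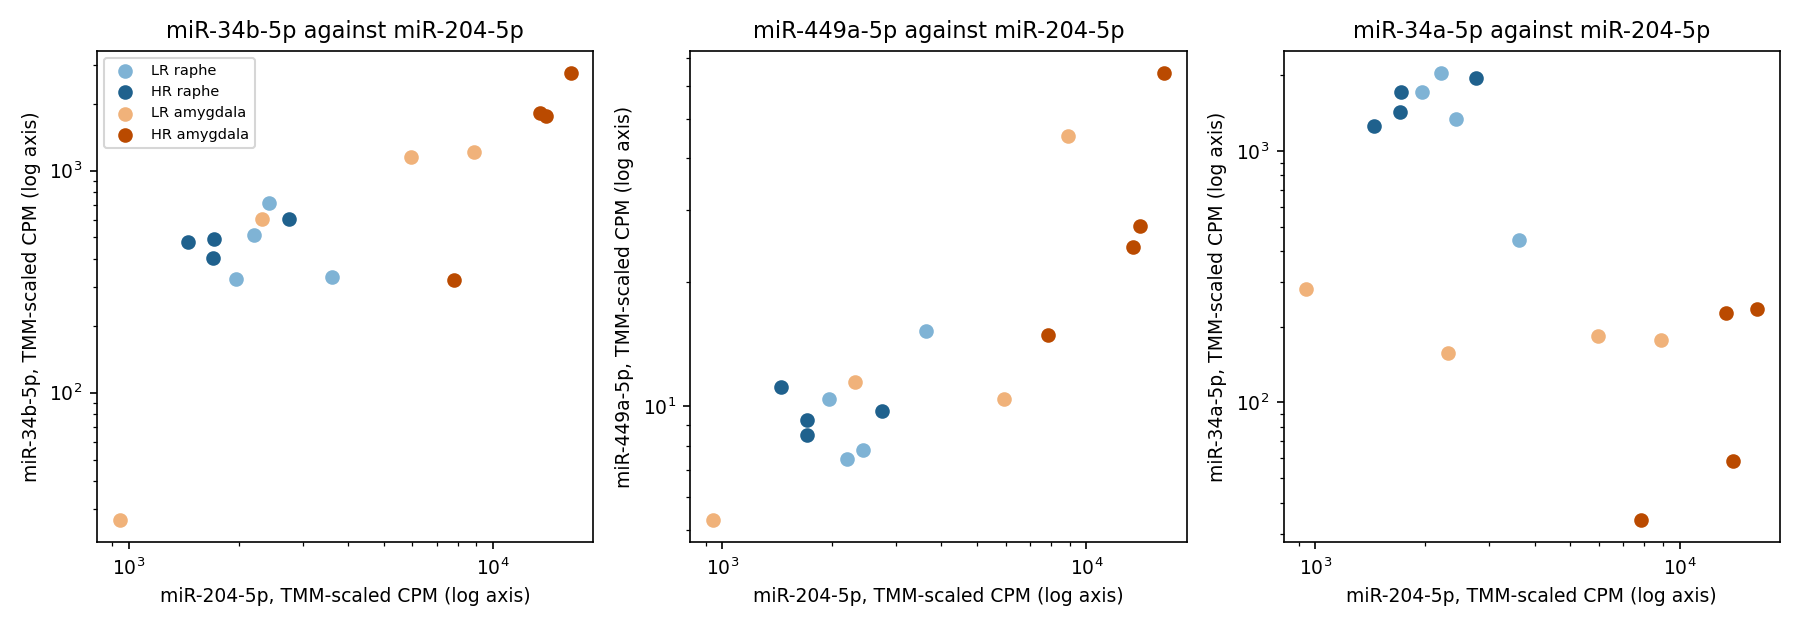
Level of miR-34b-5p, miR-449a-5p and miR-34a-5p (y axes) against miR-204-5p (x axes), all in TMM-scaled CPM on log scales, 1 point for each of the 16 libraries. miR-34b-5p and miR-449a-5p are low where miR-204-5p is lowest (LR amygdala 4, 942 CPM) and highest where it is highest (HR amygdala 4, 16331 CPM), while miR-34a-5p separates by region.

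The correlation with miR-204-5p on the log2 scale was 0.762 for miR-34b-5p, 0.801 for miR-34c-5p and 0.865 for miR-449a-5p over the 16 libraries, and 0.777, 0.823 and 0.842 without low responder amygdala replicate 4. Within the 8 amygdala libraries it was 0.880, 0.914 and 0.844. Without low responder replicate 4 these amygdala values fell to 0.655, 0.808 and 0.731 (n = 7). Within the 8 dorsal raphe libraries, with miR-204-5p at 1452 to 3616 CPM, it was -0.03, 0.224 and 0.393. For miR-34a-5p it was -0.67 over all 16 and -0.29 within amygdala, and 0.00036 within amygdala without low responder replicate 4. These values are descriptions. The points share their scaling, and part of each pooled value is the difference between regions.

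The miRNAs most like each of 3 members were named by the highest Pearson r of log2 CPM over the 16 libraries, among 399 miRNAs of at least 10 CPM on average. For miR-34a-5p they were miR-133a-3p (0.969), miR-195-5p (0.956), miR-135b-5p (0.956), miR-135a-5p (0.946) and miR-758-3p (0.946). The first of these, a striated muscle miRNA, was lower in amygdala (-2.93, SE 0.25, adjusted p = 1.84e-07), as were the other 4. Its r with miR-34a-5p was 0.894 within dorsal raphe and 0.890 within amygdala. All 4 muscle miRNAs listed were lower in amygdala, where 14.9% of all miRNAs tested were, with a median of -2.52. None of these 4 muscle miRNAs was at 0 in any library. They did not all follow miR-34a-5p within dorsal raphe: miR-1-3p was highest in low responder replicate 4, with 4697 CPM against 972 to 1511 CPM in the other 7 libraries. That library had the lowest miR-34a-5p (445 CPM) and miR-133a-3p (92.9 CPM) levels of the region. What part the tissue that holds the muscle miRNAs has in the miR-34a-5p difference was not tested.

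For miR-449a-5p the most alike were miR-204-5p (0.865), miR-448-3p (0.842), miR-211-5p (0.821), miR-455-5p (0.809) and miR-204-3p (0.775). miR-448-3p was higher in amygdala by 2.92 (SE 0.46, adjusted p = 0.000152). For miR-34b-5p they were miR-199a-5p (0.801), miR-204-3p (0.775), miR-204-5p (0.762), miR-764-5p (0.741) and miR-211-5p (0.733). miR-199a-5p, the first of these, had a regional log2 fold change of 0.11 (SE 0.22, edgeR adjusted p = 0.731). Its r with miR-34b-5p was 0.892 within amygdala and 0.138 within dorsal raphe. Without low responder amygdala replicate 4 it was 0.679 over the other libraries and 0.842 within amygdala. What this likeness rests on was not tested. miR-204-5p, miR-204-3p and miR-211-5p, all of the choroid plexus list, appear for both members.

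Other miRNAs linked to p53 in textbooks were listed as well. Of 12 tested, 3 passed between regions, where 24.3% of all miRNAs did: 2 were higher in amygdala, miR-203a-3p (0.99, SE 0.21, adjusted p = 0.00215) and miR-203b-3p (1.59, SE 0.51, adjusted p = 0.0275), and 1 was lower, miR-194-5p (-1.45, SE 0.33, adjusted p = 0.00335). Their median was -0.54, beside -0.08 over all miRNAs. Of the remaining lists, 3 of 4 oligodendrocyte miRNAs were lower in amygdala, among them miR-338-3p (-1.18, SE 0.30, adjusted p = 0.00762), as was 1 of 4 of microglia and leukocytes. Of all miRNAs tested, 14.9% were lower. By line, 2 of the 4 oligodendrocyte miRNAs passed as lower in low responders, where 10.5% of all did. In high responders 0 passed, where 6.57% of all did, and miR-338-3p had -0.75 (edgeR adjusted p = 0.242). Their sum was 40514 CPM in low responder dorsal raphe replicate 4 and 10264 to 16362 CPM in the other dorsal raphe libraries. The 4 vascular and 2 erythrocyte miRNAs had medians of -0.65 and 0.14, and none passed edgeR's test.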

How the data were processed

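The authors deposited read counts per mature miRNA, 1 table of 722 miRNAs for each of 16 libraries. Tools named in the submitters' processing notes are Bowtie2, bedtools 2.14.2 and cutadapt 1.3.1. Their settings, the build, the annotation and how multiply matching reads were handled: not given in the sources used here.

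From the counts as deposited, edgeR's filterByExpr (settings of 10 for a count and 15 for a total) retained 639 miRNAs, all 10 members among them. edgeR 4.0.16 in R 4.3.3 fitted 1 mean for each of the 4 groups over 16 libraries, with TMM factors and the robust quasi-likelihood test. It tested 6 comparisons: region averaged over the lines, region in each line, line in each region and the interaction. Benjamini-Hochberg adjustment ran over the 639 miRNAs, with a threshold of 0.05. log2 CPM uses a prior count of 2. Arm shares used unscaled counts, at least 10 over both arms. The edgeR fit was tested on simulated data with known changes.

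Alternatives were DESeq2 1.42.0, limma-voom (limma 3.58.1), library totals, no filter, a mean of at least 10 CPM, each library left out, both libraries that stand apart left out, and a replicate block. The block fitted on amygdala libraries alone was added after seeing the data. In amygdala, deviations from the group mean were correlated between the lines' same-numbered libraries (0.688, 0.29, 0.212 and 0.509, each over the criterion of 0.1), so the numbers were taken as pairs there. No other pair of groups had all its correlations over 0.1, though some were high. High responder dorsal raphe and amygdala had 0.675, -0.275, 0.353 and 0.531. Between the lines in amygdala, 5 of 8 samples correlated best with their own number.

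Members named are all rows of the family, the 5 miRNAs most correlated with each of miR-34a-5p, miR-34b-5p and miR-449a-5p, and up to 3 of each list by lowest averaged p. Members and lists were chosen with earlier results of these data known. Names of 644 of the 722 miRNAs matched the RefSeq table.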

Additional observations from a re-analysis of the deposited data

Results flagged for a closer look

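In 3 of 44 groups of 4 libraries examined over the members' levels and the arm share, 1 library lay far from the other 3 by Dixon's criterion, which chance meets in about 1 of 20 groups. miR-449a-5p was at 45.4 CPM in low responder amygdala replicate 2, with 5.28 to 11.5 CPM in the other 3. miR-449c-5p was at 5.22 CPM in high responder dorsal raphe replicate 1, with 0.770 to 1.27 CPM in the others. miR-449c-3p was at 3.26 CPM in that same library, with 0.824 to 1.03 CPM in the others.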

How the results depend on the processing

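The regional difference of miR-34a-5p averaged over the lines kept its direction and its call under every alternative run. Of 406 values under alternatives other than a left-out library, 364 kept both, 26 turned direction, none of them a call, 11 gained and 5 lost a call. Counts of members called in the averaged comparison (3) were 5 in DESeq2, 1 in limma-voom, 5 without both libraries that stand apart and 2 to 6 with single libraries left out. In low responders (1) they were 2 in DESeq2 and 1 to 2 with single libraries left out. In high responders (2) they were 1 with library totals, 1 in limma-voom and 1 to 3 with single libraries left out. With the replicate number as a block, 4 members passed in the averaged comparison, 2 in low responders and 1 in high responders, where miR-449a-5p had 1.64 (edgeR adjusted p = 0.0627). Of all 639 miRNAs the block called 80 higher and 108 lower averaged over the lines, against 60 and 95 without it. In low responders it called 37 and 68, against 23 and 67, and in high responders 48 and 43, against 42 and 42. Outside the amygdala pair the samples share only a number, and no 2 groups had all 8 samples correlate best with their own number. The block changed no other count of members called. The 3p arm share difference of miR-34a was 1.06 to 2.65 points with single libraries left out, and its exact permutation p was 0.00781 with the replicate block. The cause of these changes was not tested.

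Directions that turned are log2 fold changes, none a call. In limma-voom the regional values were -0.12 for miR-34b-3p averaged, and -0.23 for miR-34b-5p, -0.57 for miR-34b-3p and -0.40 for miR-34c-3p in low responders. Line values there were 0.069 for miR-449a-5p and -0.16 for miR-449a-3p in dorsal raphe and -0.51 for miR-449a-3p in amygdala, and interactions -0.35 for miR-449a-3p and 0.43 for miR-449c-3p. With library totals, line values in dorsal raphe were 0.11 for miR-34a-3p and 0.24 for miR-449a-5p, and interactions -0.056 for miR-34c-5p, -0.038 for miR-34c-3p and -0.052 for miR-449a-3p. DESeq2 gave 0.037 for miR-34a-3p and 0.056 for miR-449a-5p between lines in dorsal raphe. Without a filter miR-34b-3p in low responders was -0.026, and at 10 CPM or more miR-449a-5p between lines in dorsal raphe was 0.14. Without both libraries that stand apart, line values in dorsal raphe were -0.0040 for miR-34a-5p and 0.26 for miR-449a-5p, and the interaction of miR-449a-3p -0.29. With the replicate block the regional values in low responders were -0.22 for miR-34b-3p and -0.038 for miR-34c-3p, line values in dorsal raphe 0.040 for miR-34a-3p and 0.031 for miR-449a-5p, and the interaction of miR-449a-3p -0.28.

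With single libraries left out, ranges that cross 0 were -0.051 to 0.51 for miR-34b-3p averaged, and -0.63 to 0.49 for miR-34b-3p and -0.41 to 0.69 for miR-34c-3p in low responders. Between lines in dorsal raphe they were -0.12 to 0.21 for miR-34a-3p, -0.025 to 0.37 for miR-34b-5p, -0.12 to 0.31 for miR-449a-5p and -0.40 to 0.86 for miR-449a-3p. In amygdala they were -0.68 to 0.13 for miR-34a-3p and -0.21 to 1.06 for miR-449a-3p. For the interaction they were -0.76 to 0.098 for miR-34a-3p, -0.069 to 1.05 for miR-34c-5p, -0.13 to 0.97 for miR-34c-3p, -0.68 to 0.88 for miR-449a-3p, -1.34 to 0.31 for miR-449c-5p and -0.61 to 0.55 for miR-449c-3p. Depth limits the rows for miR-34a-3p, miR-449a-3p, miR-449c-5p and miR-449c-3p, with at most 27 counts in a library.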
